A study of Mus musculus with 15 samples.

Results

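The cytosolic heat shock chaperones examined here are 10 genes, chosen by name with earlier results of these data known: Hspa1a, Hspa1b, Hspa8, Dnajb1, Dnaja1, Hsph1, Bag3, Hsp90aa1, Chordc1 and Hspb1. They are among 19935 genes read from the array table, each from a row that names it alone. The exception is Hspa1b, which has no such row and was read from one that it shares with Hspa1a, its near-identical neighbour. All 10 were measured in each of the 15 mice. RNA came from a lobe of the right lung (the inferior one) of male C57BL/6N mice weighing 24 to 26 g, and a mouse gave 1 array. Of these, 5 mice were ventilated with synthetic air containing 80 ppm H2S (hydrogen sulfide), 5 were ventilated with synthetic air alone, and 5 controls breathed synthetic air spontaneously, in each case for 6 hours. The ventilator delivered 12 ml/kg at 80 to 90 breaths per minute with a positive end-expiratory pressure of 2 cmH2O. Every mouse, controls included, was anaesthetised (ketamine at 90 mg/kg, acepromazine at 1 mg/kg), carried an arterial line and a tracheal tube, and lay on a heating pad. H2S given without ventilation was not analysed here, so that H2S minus air is a difference between ventilated mice.

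Heat shock chaperones bind unfolded protein chains, keep them from clumping and help them to refold. HSP70 proteins work in a cycle: a J-domain protein delivers the client and starts ATP hydrolysis, and a nucleotide exchange factor then opens HSP70 again to release it, while HSP90 takes over clients such as kinases and steroid receptors at a later step. In a stressed cell the transcription factor HSF1 is freed from chaperones, forms trimers and binds heat shock elements, which are repeats of a GAA unit in alternating orientation, in front of the inducible chaperone genes.

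The promoters are shown first because the repeated unit that HSF1 reads can be seen in them. RefSeq start sites (GRCm38.p6) were held for 8 of the 10 genes, all but Hsp90aa1 and Hspa8. The windows run from 250 bases before to 50 bases after the start. Capitals mark each pair of neighbouring units, spelled GAANNTTC or TTCNNGAA. Each of these spellings is its own reverse complement, so that 1 search covers both strands, and the 2 kinds overlap where 3 or more units follow each other. The 250 bases in front of the start follow, 5′ to 3′ on the gene's own strand, for the genes with such a pair there that passed a test below and, for contrast, for Dnajb1, which has none.
Hspa1a (chr17:34972157-34972406, minus strand): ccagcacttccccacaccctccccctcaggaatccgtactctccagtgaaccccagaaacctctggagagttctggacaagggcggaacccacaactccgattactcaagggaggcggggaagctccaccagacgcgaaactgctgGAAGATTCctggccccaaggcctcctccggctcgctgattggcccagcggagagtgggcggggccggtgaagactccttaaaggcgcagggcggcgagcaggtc
Hspa1b (chr17:34959239-34959488, minus strand): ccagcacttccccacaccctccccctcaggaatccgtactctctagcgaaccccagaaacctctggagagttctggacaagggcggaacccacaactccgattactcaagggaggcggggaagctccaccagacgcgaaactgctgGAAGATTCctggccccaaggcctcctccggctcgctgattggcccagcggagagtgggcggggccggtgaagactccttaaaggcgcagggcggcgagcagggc
Hspb1 (chr5:135887669-135887918, plus strand): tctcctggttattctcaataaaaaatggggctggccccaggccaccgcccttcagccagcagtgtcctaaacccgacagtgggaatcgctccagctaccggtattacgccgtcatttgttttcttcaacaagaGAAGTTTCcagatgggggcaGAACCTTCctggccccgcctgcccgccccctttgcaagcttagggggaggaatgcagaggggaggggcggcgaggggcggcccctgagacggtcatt
Hsph1 (chr5:149636337-149636586, minus strand): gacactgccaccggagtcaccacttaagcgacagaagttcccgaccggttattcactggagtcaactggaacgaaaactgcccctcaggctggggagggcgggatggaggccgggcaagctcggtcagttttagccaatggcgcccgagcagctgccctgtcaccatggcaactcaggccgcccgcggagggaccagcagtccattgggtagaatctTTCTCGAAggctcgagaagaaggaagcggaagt
Dnajb1 (chr8:83607925-83608174, plus strand): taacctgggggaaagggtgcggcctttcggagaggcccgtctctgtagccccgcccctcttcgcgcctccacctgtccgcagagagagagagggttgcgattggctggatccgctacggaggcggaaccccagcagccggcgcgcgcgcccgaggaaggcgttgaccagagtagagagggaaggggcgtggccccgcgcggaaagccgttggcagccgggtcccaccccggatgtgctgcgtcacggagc

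Hspa1a and Hspa1b carry the same pair at the same place, at positions -104 to -97 from the start, and their 250 bases are identical at 247 positions. Hspb1 has a pair at -117 to -110 and another at -97 to -90, and Hsph1 has 1 at -33 to -26. In Bag3, Chordc1 and again Hsph1, pairs lie at or just after the start, as these 30-base stretches show.
Bag3, bases 21 to 50 after the start (chr7:128523603-128523632, plus strand): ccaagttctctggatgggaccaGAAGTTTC
Chordc1, 8 bases before to 22 after the start (chr9:18292259-18292288, plus strand): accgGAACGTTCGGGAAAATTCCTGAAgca
Hsph1, bases 21 to 50 after the start (chr5:149636287-149636316, minus strand): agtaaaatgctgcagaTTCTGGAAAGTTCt

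The stretch of Chordc1 holds 5 alternating units without a break, and the later one of Hsph1 holds 3. Over the whole window, GAANNTTC occurred in 7 of the 8 genes, against 9.04% of all 27025 genes with a window, and TTCNNGAA occurred in 2 of the 8 genes, against 9.6%. The triple GAANNTTCNNGAA, searched on both strands, occurred in Hsph1 and Chordc1, against 0.662% of all genes. In the 250 bases before the start alone, GAANNTTC was found in 4 of the 8 genes (7.73% of all genes), TTCNNGAA in 1 (8.11%) and the triple in none of the 8 (0.514%). Over the whole window again, the TATA box TATAAA was found in 0 of the 8 genes (15.7% of all genes) and the CCAAT box in 5 (41.1%). Dnajb1 had no pair in the window of either of its RefSeq starts. These are matches of letters in a fixed window around annotated starts, and binding of HSF1 was not measured.

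**Figure D1:**
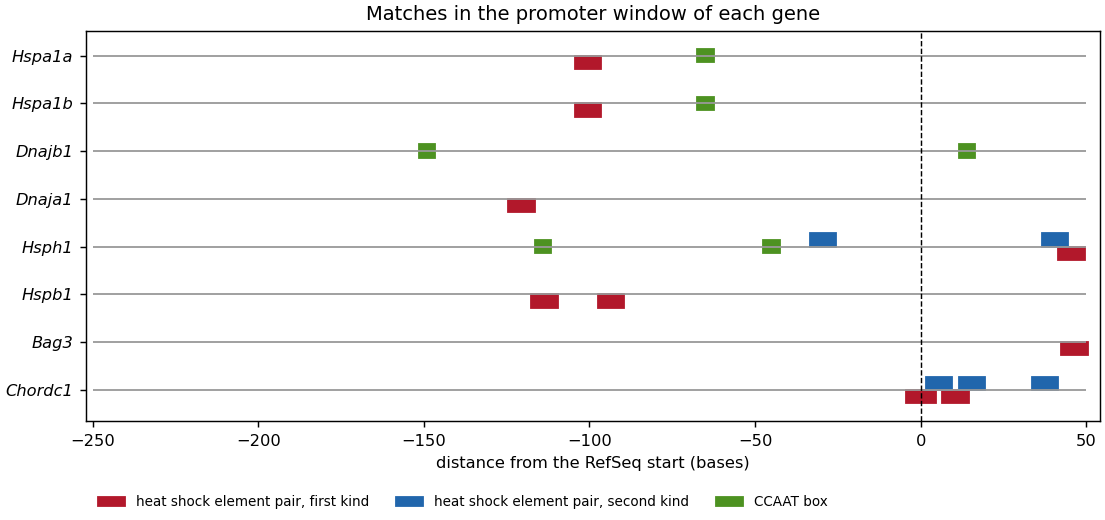
Matches to the heat shock element pairs (red, GAA unit first; blue, TTC unit first) and to the CCAAT box (green) in the promoter window of 8 chaperone genes, against the distance from the RefSeq start in bases; for genes with several starts, the first window listed is drawn. Hspa1a and Hspa1b share a pair at -104 to -97, while the pairs of Chordc1 and Bag3 lie at or after it.

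Values are array intensities on a linear scale, and folds and tests are on their log2 scale, from 1 limma fit over the 15 arrays. A gene passed at an adjusted p under 0.05 (Benjamini-Hochberg over all 28361 rows), and "rose" is used only of such genes. Errors given after a log2 difference are standard errors, and the 5 values of a group are those of its replicates 1 to 5. In whole lung, fewer cells of a type and less RNA per cell cannot be told apart.

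The inducible HSP70 genes had the largest differences among the 10 between H2S-ventilated mice and either other group. Hspa1a, the classical stress-inducible HSP70, had intensities of 1743, 7462, 7097, 2479 and 2742 in H2S-ventilated mice. It had 445, 466, 755, 553 and 353 in air-ventilated mice, and 640, 466, 387, 365 and 217 in controls. Every H2S-ventilated mouse lay above every mouse of the other groups, whereas the air-ventilated and control mice overlapped. Hspa1a rose 9.28-fold in H2S-ventilated mice over controls (log2 difference 3.21 ± 0.38, adjusted p = 0.000214) and 7.29-fold over air-ventilated mice (2.87 ± 0.38, adjusted p = 0.00327). Air-ventilated mice differed from controls by 0.35 ± 0.38 on the log2 scale (adjusted p = 0.815).

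Hspa1b encodes a protein almost identical to that of Hspa1a, and its row on the array names both genes, so that their signals cannot be told apart there. Its intensities were 2425, 8977, 9049, 3386 and 4077 in H2S-ventilated mice. They were 676, 737, 1257, 1091 and 812 in air-ventilated mice, and 1162, 780, 578, 623 and 417 in controls. The H2S-ventilated mice again lay apart from the rest. The log2 difference was 2.86 ± 0.35 over controls (adjusted p = 0.000248) and 2.45 ± 0.35 over air-ventilated mice (adjusted p = 0.00635), against 0.41 ± 0.35 for air minus control (adjusted p = 0.735).

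Hspa8, the constitutive HSP70 that cells make without stress, varied little between mice. It ranged from 8453 to 9314 in H2S-ventilated mice (median 8816), from 7774 to 8802 in air-ventilated mice (median 8544) and from 6856 to 8487 in controls (median 7715). Its log2 difference was 0.19 ± 0.07 for H2S minus control (adjusted p = 0.122), 0.06 ± 0.07 for H2S minus air (adjusted p = 0.997) and 0.13 ± 0.07 for air minus control (adjusted p = 0.465). The 95% confidence interval for H2S minus control was 0.04 to 0.35. The other 2 rows that name Hspa8 alone gave 0.21 and 0.24 for the same difference.

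Of the J-domain partners of HSP70, Dnajb1 rose and Dnaja1 did not pass. Dnajb1 (HSP40), the J protein induced by heat together with HSP70, had 740, 1559, 1053, 1004 and 1100 in H2S-ventilated mice. It had 475, 485, 526, 441 and 531 in air-ventilated mice, and 399, 381, 471, 364 and 303 in controls. The H2S-ventilated mice did not overlap with either group, and the air-ventilated mice were close to each other, with the highest at 1.20 times the lowest. Dnajb1 was 2.79-fold higher in H2S-ventilated mice than in controls (1.48 ± 0.15, adjusted p = 8.9e-05) and 2.16-fold higher than in air-ventilated mice (1.11 ± 0.15, adjusted p = 0.00584). For air minus control the log2 difference was 0.37 ± 0.15 (adjusted p = 0.267).

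Dnaja1, a J protein that also works with HSP70 in folding and in protein import, had 968, 1293, 1500, 1141 and 1134 in H2S-ventilated mice. It had 1041, 1045, 985, 809 and 867 in air-ventilated mice, and 973, 745, 936, 982 and 964 in controls. H2S-ventilated replicate 1 lay among the controls and the other 4 above them, and without it Dnaja1 passed over controls (0.46 ± 0.11, adjusted p = 0.0271). The log2 difference was 0.38 ± 0.12 for H2S minus control (adjusted p = 0.0571) and 0.34 ± 0.12 for H2S minus air (adjusted p = 0.588). A second row naming Dnaja1 alone gave 0.38 and 0.15 for the same differences. Another row, which names the microRNA gene Mir207 beside Dnaja1, gave 0.01 and -0.02.

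Both nucleotide exchange factors among the 10 rose over controls and did not pass over air-ventilated mice. Hsph1 (HSP110), which opens HSP70 and also helps to pull apart protein clumps, had 508, 1262, 1066, 541 and 567 in H2S-ventilated mice. It had 349, 375, 441, 422 and 426 in air-ventilated mice, and 502, 298, 476, 345 and 327 in controls. All 5 H2S-ventilated mice exceeded all others, but only replicates 2 and 3 did so by a wide margin: the lowest, at 507.9, stood next to the highest control, at 501.6. Hsph1 rose over controls (0.94 ± 0.23, adjusted p = 0.0196), and its difference from air-ventilated mice (0.87 ± 0.23) did not pass (adjusted p = 0.319). The call over controls was lost without control replicate 2, control replicate 4 or H2S-ventilated replicate 3 (adjusted p = 0.0556, 0.0509 and 0.0559).

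Bag3, which links HSP70 to small heat shock proteins and to the autophagy of damaged proteins, had 925, 1162, 1129, 1157 and 908 in H2S-ventilated mice. It had 808, 812, 924, 851 and 787 in air-ventilated mice, and 819, 914, 868, 712 and 623 in controls. The ranges overlapped at the edges. Bag3 rose 1.35-fold over controls (0.43 ± 0.11, adjusted p = 0.0226), and its difference from air-ventilated mice was 0.33 ± 0.11 (adjusted p = 0.526). The call over controls was lost without control replicate 4 or 5, or without H2S-ventilated replicate 3 or 4, with adjusted p = 0.0636, 0.0538, 0.0591 and 0.0561.

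Hsp90aa1, the stress-inducible cytosolic HSP90, had 2723, 3533, 4014, 2472 and 2928 in H2S-ventilated mice. It had 1901, 2292, 2475, 2337 and 3043 in air-ventilated mice, and 2393, 1774, 1748, 2088 and 2158 in controls. H2S-ventilated mice lay above all controls and overlapped with air-ventilated mice. Hsp90aa1 rose 1.53-fold over controls (0.61 ± 0.14, adjusted p = 0.0142), and the other 2 rows of the gene rose by 0.60 and 0.71. For H2S minus air the log2 difference was 0.37 ± 0.14 (adjusted p = 0.672).

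Chordc1, a zinc-binding cochaperone of HSP90 that is known in mouse as a heat-inducible gene, had 786, 665, 760, 591 and 765 in H2S-ventilated mice. It had 627, 801, 637, 545 and 726 in air-ventilated mice, and 616, 501, 524, 602 and 592 in controls. The 3 groups overlapped. Its log2 difference was 0.33 ± 0.11 for H2S minus control (adjusted p = 0.0814), 0.10 ± 0.11 for H2S minus air (adjusted p = 0.997) and 0.23 ± 0.11 for air minus control (adjusted p = 0.374). It missed the test for H2S minus control with all mice and passed it without H2S-ventilated replicate 4 (0.39 ± 0.11, adjusted p = 0.0412).

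Hspb1 (HSP25), a small heat shock protein that holds unfolded proteins without using ATP, had 2572, 4512, 4725, 3524 and 2951 in H2S-ventilated mice. It had 1846, 1533, 2530, 1831 and 2786 in air-ventilated mice, and 1967, 1348, 1424, 933 and 1081 in controls. H2S-ventilated mice exceeded every control and overlapped with air-ventilated mice. Hspb1 rose 2.72-fold over controls (1.45 ± 0.22, adjusted p = 0.000986), and a second row of the gene gave 1.46. Among the 10 genes it had the highest log2 difference for air minus control (0.65 ± 0.22), which did not pass (adjusted p = 0.131), as did not that for H2S minus air (0.79 ± 0.22, adjusted p = 0.345). Without control replicate 1, the air minus control difference was 0.80 ± 0.21 and passed (adjusted p = 0.0452).

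**Figure D2:**
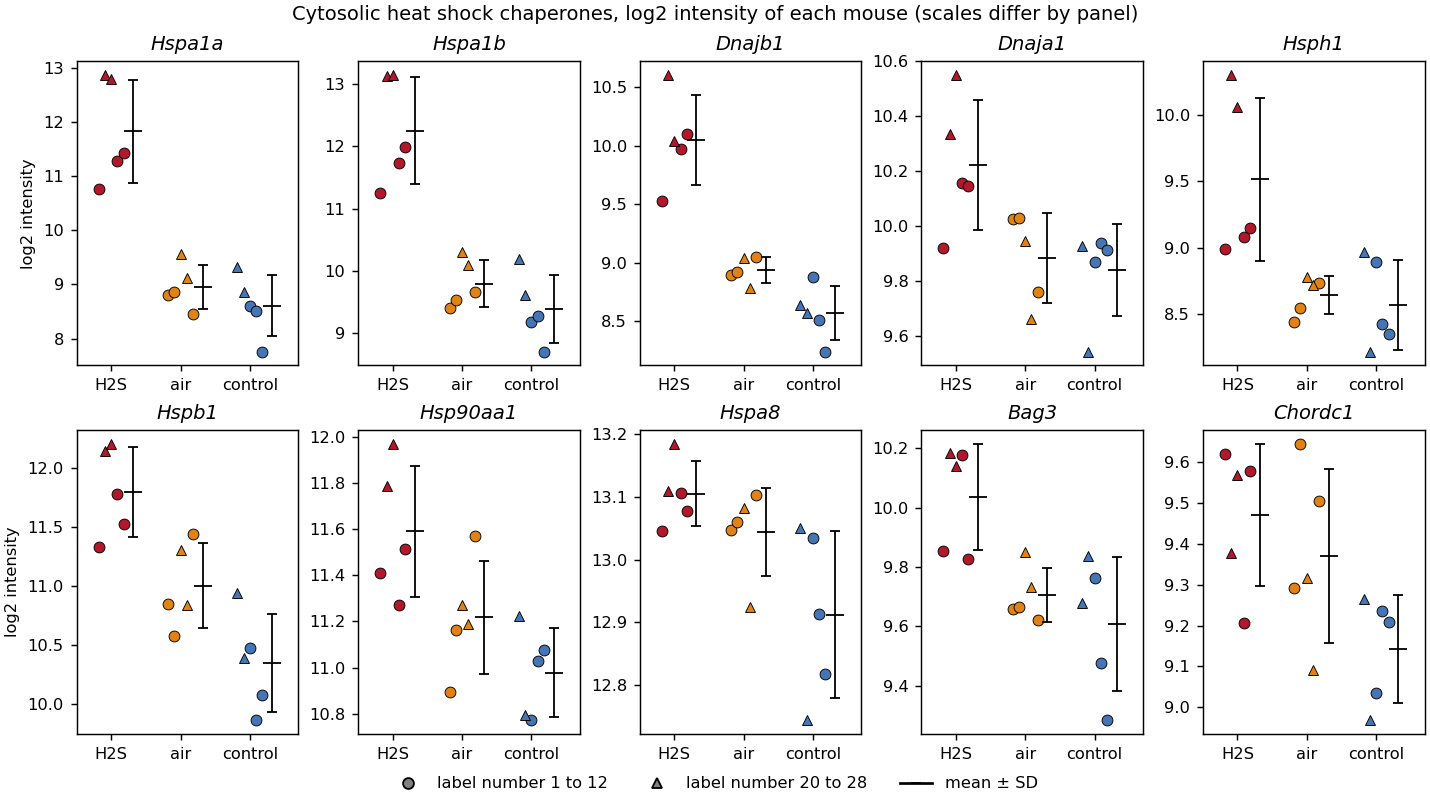
Log2 intensity of the 10 chaperone genes in each mouse, in H2S-ventilated (red), air-ventilated (orange) and control mice (blue), with circles for label numbers 1 to 12, triangles for 20 to 28, and bars for the mean ± SD of 5 mice; each panel has its own scale. In Hspa1a, Hspa1b, Dnajb1 and Hsph1 all red points lie above all others, and the red triangles are the highest points of Hspa1a, Hspa1b, Hsph1, Hspb1, Hsp90aa1 and Dnaja1.

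Set side by side, the 3 comparisons gave different counts. For H2S minus control, 7 of the 10 genes rose (Hspa1a, Hspa1b, Dnajb1, Hspb1, Hsph1, Hsp90aa1 and Bag3) and none of the 10 fell, where 3.92% of all rows rose, 3.93% fell and 7.86% passed in either direction. CyberT, a Bayes-regularised test of the kind named in the study's methods, passed 9 of the 10 there (9.22% of all rows). For air minus control, 0 of the 10 passed, where 3.44% of all rows did (1.56% higher and 1.89% lower). At an unadjusted p under 0.05, limma gave 2 of the 10 (Dnajb1 and Hspb1), close to the 14% of all rows, and CyberT also passed 2 (5.7% of all rows). For H2S minus air, 3 of the 10 rose (Hspa1a, Hspa1b and Dnajb1), where 0.0705% of all rows rose, 0.00705% fell and 0.0776% passed in either direction. CyberT passed 5 in that comparison (0.504% of all rows), adding Hsph1 and Hspb1. At an unadjusted p under 0.05, limma gave 8 of the 10 for H2S minus air (5.68% of all rows). It gave 10 of the 10 for H2S minus control (20.7%). Any 2 of these comparisons share a group of mice, so that they are not independent. The choice of the 10 genes was also made with earlier results of these data known.

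The median log2 difference of the 10 genes was 0.78 for H2S minus control, 0.23 for air minus control and 0.58 for H2S minus air, beside 0.00, 0.01 and -0.01 over all rows. Each of the 10 estimates was above 0 in each of the 3 comparisons. Groups without overlap, the higher group on the H2S side, were found in 6 of the 10 genes for H2S and control mice (4.11% of all rows) and in 4 for H2S and air mice (0.691%). Air-ventilated mice lay wholly above controls in 0 of the 10 genes (2.65% of all rows). The study's cut-offs (p of at most 0.005, adjusted p of at most 0.1 and fold of at least 1.7) were applied to limma, where the study used CyberT. On that basis 5 of the 10 rose for H2S minus control (0.656% of all rows) and 3 for H2S minus air (0.0599%). For air minus control it was 0 (0.342% of all rows rose and 0.959% met the cut-offs in either direction). The 5 for H2S minus control were Hspa1a, Hspa1b, Dnajb1, Hspb1 and Hsph1. With CyberT, Hsph1 (1.825-fold, adjusted p = 0.00313) and Hspb1 (1.733-fold, adjusted p = 0.00102) also met the cut-offs for H2S minus air. Hsph1 fell short of the fold in both comparisons when it was taken from group medians (0.719 and 0.428 on the log2 scale).

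**Figure D3:**
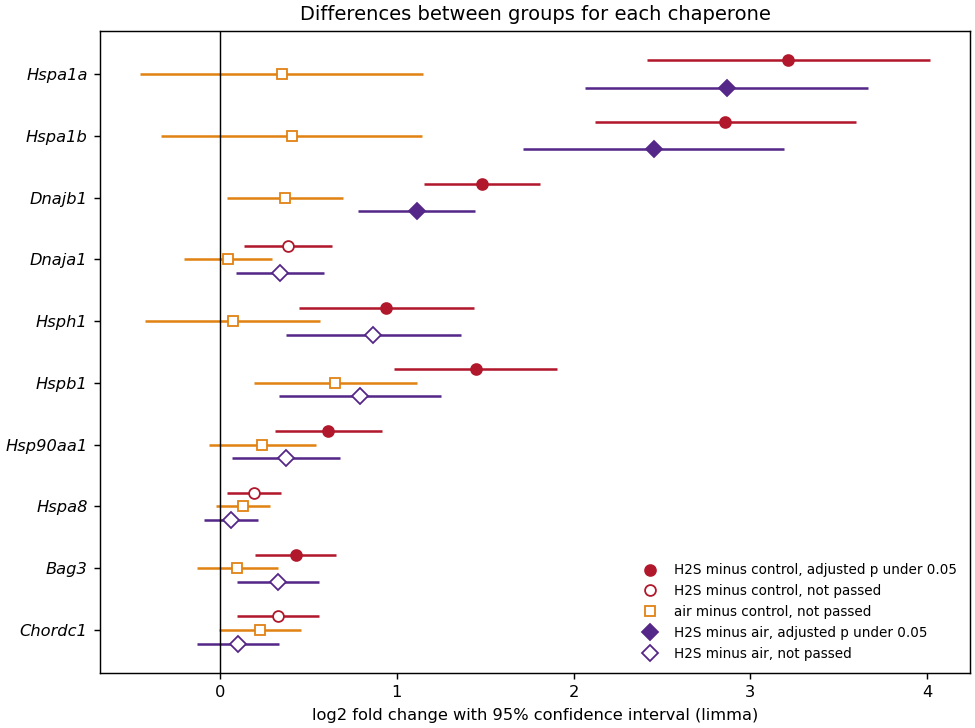
Log2 fold change with its 95% confidence interval (limma, 15 arrays) for each of the 10 genes, for H2S minus control (red circles), air minus control (orange squares) and H2S minus air (purple diamonds); filled symbols passed at an adjusted p under 0.05. Intervals for air minus control reach below 0 in all but Dnajb1 and Hspb1, and only Hspa1a, Hspa1b and Dnajb1 are filled for H2S minus air.

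The mouse labels carry a running number that falls into 2 sets, 1 to 12 (3 mice in each group) and 20 to 28 (2 mice in each group), and the sources used here do not say what the number records. The H2S-ventilated mice of the set 20 to 28 (replicates 2 and 3) were among the highest 2 of their group in 9 and 7 of the 10 genes. H2S-ventilated replicate 1, of the set 1 to 12, was the lowest in 7. Over all 3 groups, Hspa1a was higher in the set 20 to 28 by 1.03 ± 0.18 on the log2 scale (adjusted p = 0.00533) and Hspa1b by 1.00 ± 0.15 (adjusted p = 0.00217), in a term that passed for 6.26% of all rows. The other 8 genes did not pass it, with values between -0.10 and 0.44.

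Within each set the order of the groups was kept for the inducible HSP70 genes. For H2S minus control, Hspa1a differed by 2.86 in the set 1 to 12 and by 3.74 in the set 20 to 28, and Hspa1b by 2.60 and 3.24, all with an adjusted p under 0.05. For H2S minus air, the values in the sets 1 to 12 and 20 to 28 were 2.45 and 3.49 for Hspa1a and 2.12 and 2.94 for Hspa1b, which passed in the set 1 to 12 (adjusted p = 0.00478 for both) and missed in the set 20 to 28 (adjusted p = 0.0525 and 0.0575). Dnajb1 differed from air-ventilated mice by 0.91 in the set 1 to 12 (adjusted p = 0.299) and by 1.41 in the set 20 to 28 (adjusted p = 0.715), and passed in neither. With the sets as a block over all mice, 7 genes passed for H2S minus control, 0 for air minus control and 3 for H2S minus air. The share of all rows that passed in this blocked fit is not given here.

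Among the 10 genes, the H2S minus control difference of Hsph1 varied most between the sets. This difference was 0.51 in the set 1 to 12 (adjusted p = 0.0991) and 1.58 in the set 20 to 28 (adjusted p = 0.29), and the H2S minus air difference of Hsph1 was 0.50 and 1.43. The difference between the sets in the H2S minus control effect was 1.07 ± 0.29 (unadjusted p = 0.00235 in limma, adjusted p = 0.996). No row of the table passed the test of that difference. At an unadjusted p under 0.05 it was met by 3 of the 10 genes for H2S minus control (3.96% of all rows), by 0 for air minus control (4.1%) and by 4 for H2S minus air (1.96%). The part of the sets in these results was not tested further.

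**Figure D4:**
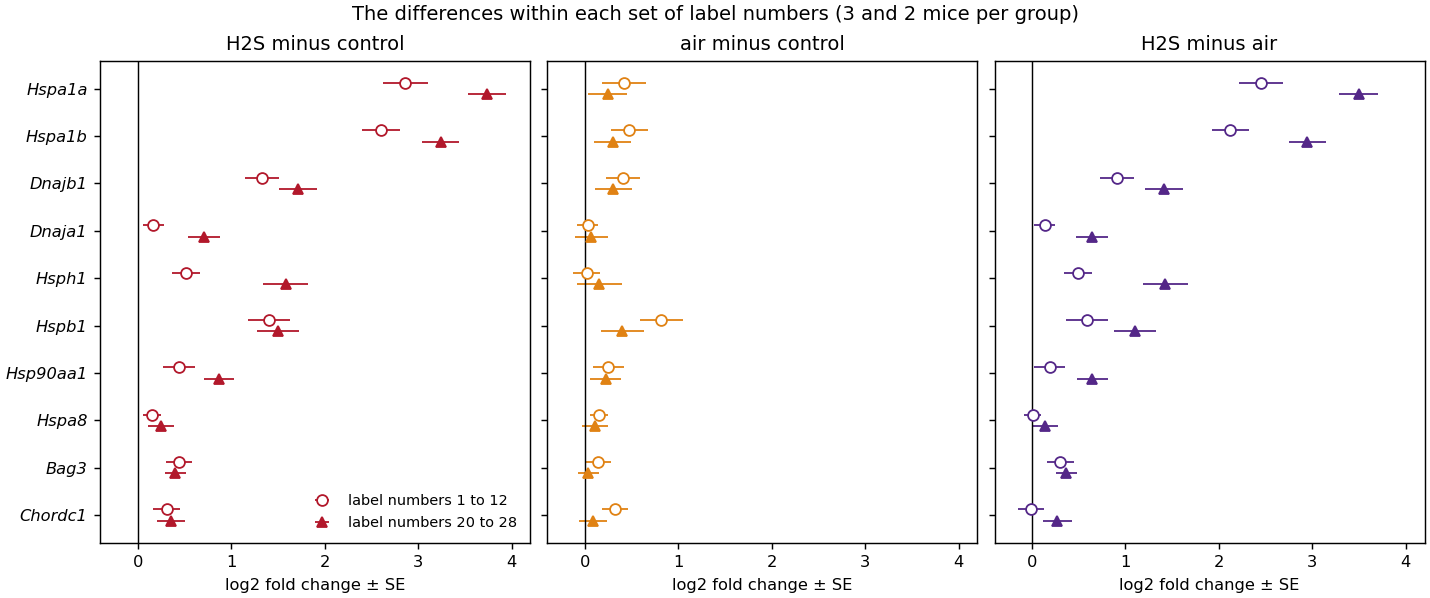
Log2 fold change ± SE of the 10 genes fitted within the mice of label numbers 1 to 12 (open circles, 3 mice per group) and within those of 20 to 28 (filled triangles, 2 mice per group), for H2S minus control, air minus control and H2S minus air. The values of Hspa1a for H2S minus control are 2.86 and 3.74, and those of Hsph1 are 0.51 and 1.58.

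The levels of other genes over the 15 arrays were set against those of Hspa1a. Among 10819 genes with a row above the median intensity, the highest Pearson correlations of log2 values with Hspa1a were those of Osgin1 (0.957), Ptgs2 (0.957), Atf3 (0.939), Gadd45a (0.937), Pparg (0.922) and Klf5 (0.917), apart from Dnajb1 (0.945). The 15 points share the 3 groups and the sets of label numbers, and the values are descriptive. Osgin1 is a target of the oxidative stress factor NRF2, Ptgs2 is the inducible cyclooxygenase, Atf3 is a stress-induced transcription factor, and Gadd45a acts in the response to DNA damage. Pparg is a nuclear receptor active in alveolar macrophages, and Klf5 is a transcription factor of epithelial cells.

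Since these genes were chosen for their likeness to Hspa1a, their levels are given without a test. Atf3 had a median intensity of 1759 in H2S-ventilated, 433 in air-ventilated and 434 in control mice, and Osgin1 one of 1429, 586 and 389 in the same groups. Ptgs2 had a median of 2111 in H2S-ventilated, 772 in air-ventilated and 550 in control mice, and Pparg one of 932, 693 and 691. Of the other chaperones, taking the row most like Hspa1a, Hsph1 reached 0.905, Hspb1 0.877, Bag3 0.871, Hsp90aa1 0.80 and Dnaja1 0.784, while Hspa8 reached 0.617 and Chordc1 0.436.

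Other chaperone families and related genes were counted in 10 lists with 92 measured genes in all. For H2S minus control 16 of the 92 passed (11 higher and 5 lower, where 7.86% of all rows passed), for air minus control 10 (6 higher and 4 lower, where 3.44% passed), and for H2S minus air 0 (0.0776%). In that last comparison 7 of the 92 had an unadjusted p under 0.05 in limma, where 5.68% of all rows did, and CyberT passed 0. Of these 7 genes, 4 were in the list of 8 further genes that respond to heat or cold.

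Other HSP70 and HSP110 genes did not pass in any comparison (0 of 8, median log2 difference -0.01 for H2S minus control), with 1 of 8 at an unadjusted p under 0.05 in limma and 0 in CyberT. The highest of them, Hspa1l, the testis-type HSP70, was at 0.31 ± 0.11 (adjusted p = 0.116). Among other J-domain proteins, Dnaja2 (0.29 ± 0.06, adjusted p = 0.00682) and Dnajb5 (0.35 ± 0.07, adjusted p = 0.0076) rose in H2S-ventilated mice, 2 of 10. The call of Dnajb5 was lost in CyberT (adjusted p = 0.0521). Dnaja2 also rose in air-ventilated mice (0.24 ± 0.06, adjusted p = 0.0411), a call that was lost in CyberT (adjusted p = 0.108) and with runs of 4 label numbers as a block (adjusted p = 0.0872).

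Of 13 HSP90 cochaperones, Fkbp5 alone rose, and it did so in both ventilated groups. Fkbp5, an immunophilin that is itself induced by glucocorticoids, had a median of 1998 in H2S-ventilated, 1973 in air-ventilated and 638 in control mice. Its log2 difference was 1.56 ± 0.16 for H2S minus control (adjusted p = 6.67e-05), 1.49 ± 0.16 for air minus control (adjusted p = 0.00104) and 0.07 ± 0.16 for H2S minus air (adjusted p = 0.997).

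Of 8 other small heat shock proteins, Hspb8, which acts with BAG3, and Hspb7, best known from muscle, rose in both ventilated groups. Hspb8 had a median of 2464 in H2S-ventilated, 2128 in air-ventilated and 1326 in control mice (1.03 ± 0.12 for H2S minus control, adjusted p = 0.000236). For Hspb8 the air minus control difference was 0.71 ± 0.12 (adjusted p = 0.00548) and the H2S minus air difference 0.32 ± 0.12 (adjusted p = 0.693). Hspb7 differed by 1.01 ± 0.20 for H2S minus control (adjusted p = 0.00559), 0.99 ± 0.20 for air minus control (adjusted p = 0.0115) and 0.02 ± 0.20 for H2S minus air (adjusted p = 0.997).

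Among 8 other nucleotide exchange factors and HSP70 ligases, Bag5 rose for H2S minus control (0.28 ± 0.08, adjusted p = 0.0493), and none of the 8 passed for air minus control. The call of Bag5 was lost in CyberT (adjusted p = 0.105), with the runs as a block (adjusted p = 0.112) and with the rows of each gene averaged (adjusted p = 0.0506). Of the heat shock factors and their binding proteins, 0 of 4 measured genes passed for H2S minus control (2 at an unadjusted p under 0.05 in limma, 0 in CyberT). Hsf2, a factor that can form trimers with HSF1, was at 0.29 ± 0.11 (adjusted p = 0.115), and Hsf1 itself was not analysed here. Hsf2bp, named for its binding to HSF2, differed by 0.24 ± 0.08 for H2S minus control (adjusted p = 0.0992) and rose for air minus control (0.32 ± 0.08, adjusted p = 0.048), a call lost in the same 3 alternatives (adjusted p = 0.127 in CyberT, 0.0739 with the block and 0.0512 with rows averaged).

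Of 8 further genes that respond to heat or cold, 3 rose and 1 fell for H2S minus control. Hmox1, the inducible heme oxygenase, had a median of 1608 in H2S-ventilated, 1109 in air-ventilated and 483 in control mice (1.61 ± 0.33, adjusted p = 0.00589 for H2S minus control). Sqstm1, the autophagy receptor p62, rose by 0.54 ± 0.08 (adjusted p = 0.000693) and Jmjd6, a hydroxylase, by 0.46 ± 0.10 (adjusted p = 0.00662). Sqstm1 also rose for air minus control, by 0.36 on the log2 scale (adjusted p = 0.0155). Cirbp, the cold-inducible RNA-binding protein, fell, with medians of 560 in H2S-ventilated, 715 in air-ventilated and 880.5 in control mice (-0.52 ± 0.13 for H2S minus control, adjusted p = 0.0169). Cirbp differed by -0.24 ± 0.13 for air minus control (adjusted p = 0.446) and by -0.29 ± 0.13 for H2S minus air (adjusted p = 0.823). For H2S minus air, 4 of these 8 genes had an unadjusted p under 0.05 in limma, and 0 passed in limma or in CyberT. Body temperature was not analysed here.

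The chaperonin that folds actin and tubulin in the cytosol was not called: 0 of its 8 subunits passed for H2S minus control (1 at an unadjusted p under 0.05 in limma, 0 in CyberT), and their median log2 difference was 0.03. Of 11 mitochondrial chaperones and proteases, Grpel2, the exchange factor of mitochondrial HSP70, rose for H2S minus control (0.48 ± 0.09, adjusted p = 0.00346). Hspe1 (HSP10) was at 0.56 ± 0.18 (adjusted p = 0.068) and Hspd1 (HSP60) at 0.44 ± 0.17 (adjusted p = 0.129). At an unadjusted p under 0.05 limma gave 5 of the 11 for this comparison (20.7% of all rows). CyberT passed 3 of them, all higher (9.22% of all rows). For air minus control, limma passed 0 of the 11 (3.44% of all rows) and CyberT 1 (5.7%).

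Of 14 endoplasmic reticulum chaperones, 1 rose and 4 fell for H2S minus control, and the median was -0.13. Dnajb9, a J protein of that compartment, rose by 0.50 ± 0.09 (adjusted p = 0.00395). Its mean log2 intensity was 11.31 in H2S-ventilated, 11.17 in air-ventilated and 10.81 in control mice. For air minus control, none of the 14 rose in limma, while CyberT passed 1 as higher and 4 as lower (5.7% of all rows in either direction). The lectin chaperone Calr (-0.36 ± 0.07, adjusted p = 0.00474) and the disulfide isomerases Pdia4 (-0.45 ± 0.09, adjusted p = 0.00766) and Pdia6 (-0.39 ± 0.10, adjusted p = 0.0236) fell. The fourth that fell was Sdf2l1 (-0.50 ± 0.13, adjusted p = 0.0311), which is named here after its values were seen. The same 4 genes fell for air minus control, with log2 differences between -0.55 and -0.31. Of these air minus control calls, those of Pdia4 and Pdia6 were lost with the runs as a block (adjusted p = 0.0533 and 0.0656) and with rows averaged (adjusted p = 0.307 and 0.0515). With the block, Pdia6 also missed for H2S minus control (adjusted p = 0.052).

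**Figure D5:**
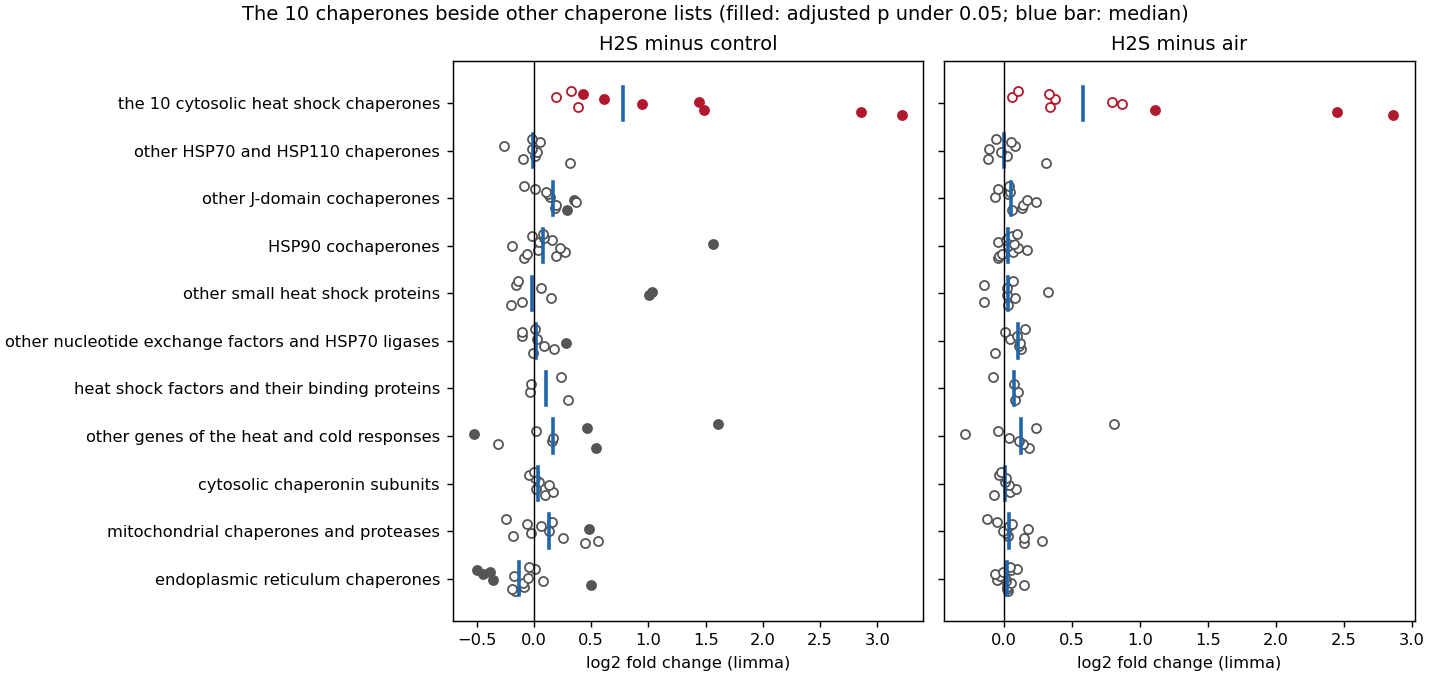
Log2 fold change of each gene in the 10 chaperone lists and of the 10 cytosolic heat shock chaperones (red), for H2S minus control and H2S minus air; filled points passed at an adjusted p under 0.05, and the blue bar is the median of a list. For H2S minus air, only 3 red points are filled, and the median of the red points is 0.58.

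The tissue label was checked with markers of 14 cell types. The summed intensity of 5 alveolar type II cell markers was 52059 to 53590 in H2S-ventilated, 52006 to 54410 in air-ventilated and 51239 to 53313 in control mice. Markers of several cell types moved with the groups, among them those of neutrophils, B cells, alveolar macrophages and endothelial cells. Of 6 neutrophil markers, 3 rose for H2S minus control and 2 for air minus control, with sums of 9085 to 16891, 9441 to 14499 and 4971 to 9903 in H2S-ventilated, air-ventilated and control mice. All 4 B cell markers fell in both comparisons, with sums of 860 to 1855, 928 to 2466 and 2616 to 4525 in the same groups. Of 3 alveolar macrophage markers, 2 rose for H2S minus control, with sums of 2063 to 2374 in H2S-ventilated, 1962 to 2353 in air-ventilated and 1610 to 1953 in control mice. Of 5 endothelial markers, Kdr and Tek fell in both comparisons, with sums of 20597 to 22227 in H2S-ventilated and 20102 to 22237 in air-ventilated mice, all below the 23422 to 26098 of controls. In each of the 2 comparisons with controls, 1 of 3 monocyte and 1 of 4 mesothelial markers fell as well. For H2S minus control alone, 1 of 5 alveolar type I and 1 of 5 smooth muscle cell markers fell. None of 6 T and NK cell markers or 2 red blood cell markers passed in any comparison in limma, and CyberT passed 1 of the 6 T and NK cell markers for H2S minus control and for air minus control, and 1 of the 2 red blood cell markers for air minus control. For H2S minus air, 0 of the 63 marker genes passed, where 0.0776% of all rows did. At an unadjusted p under 0.05 limma gave 6 of the 63 there (5.68% of all rows), and CyberT passed 0 (0.504%). The part of these cells in the differences between the groups was not tested.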

How the data were processed

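Affymetrix whole-transcript arrays of 15 mouse lungs were analysed, 5 each from H2S-ventilated, air-ventilated and control mice. The authors read them with Command Console 3.0. In Genedata Expressionist Refiner 6.1 they subtracted a GC-dependent background, applied quantile normalization and summarised probes by RMA, which the submitters' processing notes also name. The deposited intensities are linear. Their log2 was taken here, as the design made beforehand had foreseen for linear values. Array medians lay between 179.08 and 187.45, and precision is limited by how many arrays there are.

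Of 28361 rows, 21780 carried 1 gene symbol, 1617 several and 4964 are unnamed here. Symbols came from the platform annotation, and a gene was read from its row with 1 symbol and the highest mean, Hspa1b excepted. In Hspa1a-Hspa1b and other families, probes can cross-hybridise. Groups came from the treatment label. limma 3.58.1 (R 4.3.3; lmFit, contrasts.fit, eBayes) was fitted to all arrays with no covariate, and tested on simulated data. Plots were made in Python 3.11.15 with matplotlib 3.10.9. CyberT used a confidence of 15, a window of 101 and 36 degrees of freedom.

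The chaperone genes, lists and markers were chosen with earlier results of these data known. Named genes were the 10 chaperones, up to 4 per list with the smallest adjusted p for H2S minus control, and the 6 genes most correlated with Hspa1a. Promoters are RefSeq's (GRCm38.p6). Hsp90ab1, Hsf1 and several blood and myeloid markers were not analysed here. Alternatives were another test, array weights, an intensity trend, the groups or arrays included, 2 further scalings, a filter, a pseudocount of 16, other rows, blocks and each mouse left out.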

Additional observations from a re-analysis of the deposited data

Results flagged for a closer look

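Among the 30 sets of 5 values (10 genes in 3 groups), 1 held a mouse far from the others. For Dnaja1, control replicate 2 was the lowest at 745, and the nearest control was at 936, a gap of 0.826 of the whole range of the group on the log2 scale. Chance alone puts about 1 in 20 groups past the limit used here, and this gap lay beyond that limit. Without this mouse, the log2 difference of Dnaja1 for air minus control was -0.03 in place of 0.05, and neither passed.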

How the results depend on the processing

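CyberT counted 2 chaperones for air minus control (5.7% of all rows), where limma counted 0. It counted 5 for H2S minus air (0.504% of all rows), where limma counted 3. With label numbers 1 to 12 alone, 4 genes passed for H2S minus control in place of 7, and with 20 to 28 alone 2 passed for H2S minus control and 0 for H2S minus air; these fits hold fewer mice. With 1 mouse left out, 5 to 8 genes passed for H2S minus control, 0 to 1 for air minus control (1, Hspb1, without control replicate 1) and 3 in every case for H2S minus air. All other alternatives stayed within 1.5 times the counts of 7, 0 and 3, from 5 (only the 2 groups compared) to 10 (array weights) for H2S minus control. The share of all rows that pass can also change with the fit. CyberT apart, it is not given for the alternatives here, so that their counts cannot be set against it. Signs turned in 7 cases, none past the test: Chordc1 for H2S minus air with label numbers 1 to 12 (-0.0125), Dnaja1 for H2S minus air in the row that also names Mir207 (-0.0212) and Hspa8 for air minus control in both rows that also name Snord14d and Snord14c (-0.1445 each, these rows being alternatives added after the data were seen), Bag3 for air minus control with the fold from group medians (-0.0118), and, for air minus control, Dnaja1 and Hsph1 without control replicate 2 (with 1 mouse left out, Dnaja1 ranged from -0.0284 to 0.10 and Hsph1 from -0.0147 to 0.17). Runs of 4 label numbers (1 to 4, 5 to 8 and so on), taken as a replicate block, gave 7, 0 and 3 chaperones. H2S-ventilated replicate 2 (label number 20) was alone in its run, so that this block in effect left it out of the fit. Mice of 1 run in different groups had deviations that correlated at 0.18 on average (-0.18 to 0.36 over 13 pairs), beside -0.04 for mice of different runs. The average was 0.16 for mice of the same set of label numbers and -0.17 for mice of different sets. The runs were not treated as pairs. The same block counted 6 in place of 10 genes of the other chaperone lists for air minus control. Dnaja1, Chordc1 and Bag3, at 0.38, 0.33 and 0.43 on the log2 scale for H2S minus control, lay close to the threshold with 5 arrays a group.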
